A study of Mus musculus with 30 samples.

Results

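The 10 genes described here, *Atf4*, *Atf3*, *Ddit3*, *Trib3*, *Chac1*, *Sesn2*, *Asns*, *Psat1*, *Fgf21* and *Gdf15*, belong to the integrated stress response, and they were found by gene symbol among the 36103 genes of the count table. The eIF2α kinases PERK, GCN2, PKR and HRI feed this response. When one of them phosphorylates the initiation factor eIF2α, most translation slows while the mRNA of the transcription factor ATF4 is translated better, and ATF4 then switches on genes for amino acid uptake and synthesis. ATF3 and CHOP (encoded by *Ddit3*) are transcription factors of the same response, TRIB3, CHAC1 and SESN2 act as its feedback and effector proteins, ASNS and PSAT1 are amino acid enzymes, and FGF21 and GDF15 are hormones that stressed tissues can release into the blood. Part of ATF4 control is translational, so the level of *Atf4* mRNA does not measure ATF4 protein.

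RNA was sequenced from the gastrocnemius (a hindlimb muscle), diaphragm, heart and liver of 5-week-old male *Mtm1* knock-out mice (Mtm1KO, *Mtm1*-/y) and of their wild-type (WT) littermates, all on a pure 129Pas background. *Mtm1* lies on the X chromosome and encodes myotubularin, a phosphatase of phosphoinositides, and the knock-out is present in every tissue. There were 4 WT and 4 Mtm1KO libraries of the gastrocnemius and of the heart, 4 and 3 of the diaphragm, and 3 and 4 of the liver, each from 1 mouse. Libraries held 24873817 to 44289343 counts. Levels are in CPM, counts scaled to a common library total with TMM within a tissue, libraries are given in the order of their replicate numbers (1, 2 and 4 for the Mtm1KO diaphragm), and the words rose and fell mark an adjusted p under 0.05 in edgeR's quasi-likelihood test, over all genes tested in that tissue.

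*Mtm1* was at 12.5 to 31.7 CPM in the 15 WT libraries and at 3.37 to 6.39 CPM in the 15 Mtm1KO libraries, so no library went against its label. Each tissue carried its own markers: the skeletal actin *Acta1* was at 21895 to 64206 CPM in the skeletal muscles, the cardiac myosin *Myh6* at 21227 to 27658 CPM in the heart, and the hepatocyte product *Alb* at 87762 to 121837 CPM in the liver. The diaphragm libraries stood apart from each other in *Alb*, which was at 26579, 17699.9, 294 and 19262 CPM in WT and at 1685, 33827 and 565 CPM in Mtm1KO. In bulk RNA, fewer cells of a type and less RNA per cell cannot be told apart.

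The amino acid response element, written TGATGNAA on either strand, is the kind of site at which ATF4 with a C/EBP partner binds DNA. It was found in 5 of the 12 promoters of the 10 genes, 1 promoter in each of 5 genes (*Gdf15* and *Psat1* have 2 promoters), against 3.97% of the 32851 mouse promoters searched. The window was 250 bases before to 50 after the RefSeq start. The genes were listed as members of this response, so the comparison is a description and not a test. The 4 matches that lie before the start are shown in capitals in the sequences printed here, 5′ to 3′ on the gene's strand. They are shown because *Atf3*, the gene with the largest rise described below, carries a match, and so do *Chac1*, *Asns* and *Fgf21*. For *Chac1* and *Asns* no rise passed the test, nor for *Fgf21* in the tissues where it was tested. *Psat1*, the other gene that rose, has no match in its 2 promoters. The *Atf3* window is chr1:191183334-191183583 on the minus strand, that of *Chac1* is chr2:119350992-119351241 on the plus strand, that of *Asns* is chr6:7693210-7693459 on the minus strand, and that of *Fgf21* is chr7:45615491-45615740 on the minus strand, all in GRCm38.p6.
Atf3: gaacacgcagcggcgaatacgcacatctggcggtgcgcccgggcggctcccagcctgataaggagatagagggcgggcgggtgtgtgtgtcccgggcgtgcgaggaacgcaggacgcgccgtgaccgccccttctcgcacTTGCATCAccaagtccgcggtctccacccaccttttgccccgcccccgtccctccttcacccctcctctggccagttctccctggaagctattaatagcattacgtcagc
Chac1: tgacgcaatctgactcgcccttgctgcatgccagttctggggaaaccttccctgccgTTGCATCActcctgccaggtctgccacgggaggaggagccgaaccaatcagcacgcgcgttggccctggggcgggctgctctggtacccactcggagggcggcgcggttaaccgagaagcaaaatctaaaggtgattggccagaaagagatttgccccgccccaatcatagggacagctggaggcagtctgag
Asns: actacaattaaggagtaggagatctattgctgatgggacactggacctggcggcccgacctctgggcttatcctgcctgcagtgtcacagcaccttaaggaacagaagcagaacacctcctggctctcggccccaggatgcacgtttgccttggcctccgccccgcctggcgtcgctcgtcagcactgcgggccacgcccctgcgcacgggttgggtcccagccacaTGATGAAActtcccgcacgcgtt
Fgf21: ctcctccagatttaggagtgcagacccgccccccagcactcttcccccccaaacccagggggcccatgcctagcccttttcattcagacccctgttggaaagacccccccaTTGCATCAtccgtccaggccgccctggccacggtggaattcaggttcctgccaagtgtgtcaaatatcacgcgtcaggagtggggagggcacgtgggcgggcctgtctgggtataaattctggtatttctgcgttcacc
The matches start at position -110 in *Atf3*, -193 in *Chac1*, -23 in *Asns* and -139 in *Fgf21*, counted from the start of transcription. In *Atf3*, *Chac1* and *Fgf21* the matched letters were the same, TTGCATCA, while *Asns* carried TGATGAAA. The fifth match, in *Trib3*, lies at position 15 after the start. The full cAMP response element TGACGTCA was found in 0 of the 12 member promoters (1.79% of all promoters), and the ER stress response element in 0 (0.119% of all promoters). These are matches of letters in a fixed window, and binding was not measured.

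In the gastrocnemius 2 of the 8 tested genes rose, *Atf3* and *Psat1*, and 0 fell, beside 14.1% of the 15456 genes tested that rose and 14.9% that fell. At an unadjusted p under 0.05, 2 of the 8 differed (41.6% of all genes), and DESeq2 called 2 of the 8, both higher (12.4% of all genes rose with this tool). The median log2 fold change of the 8 genes was 0.31, against 0.02 over all genes tested. *Fgf21* and *Gdf15* had too few counts to be tested there.

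*Atf3*, which is also induced early after many other stimuli, was at 8.57, 6.21, 4.64 and 14.8 CPM in WT and at 86.8, 29.2, 42.9 and 11.7 CPM in Mtm1KO gastrocnemius. The Mtm1KO libraries 1, 2 and 3 lay above every WT library, and Mtm1KO library 4 lay below WT library 4, so the groups overlapped. The group means were 8.55 ± 4.46 and 42.6 ± 32.1 CPM (SD, n = 4 each), and the log2 fold change was 2.32 (SE 0.56, adjusted p = 0.0126). Leaving out Mtm1KO library 1 lowered it to 1.71, with an adjusted p of 0.0283.

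*Atf4* itself did not pass the test and was the member with the narrowest spread. It was at 139, 160.0, 136 and 155 CPM in WT and at 145, 145, 130.0 and 128 CPM in Mtm1KO, and the ranges overlapped. The log2 fold change was -0.11, and its 95% confidence interval ran from -0.28 to 0.06. *Ddit3* was at 9.77, 8.78, 8.24 and 8.40 CPM in WT and at 11, 9.53, 7.81 and 11.7 CPM in Mtm1KO (log2 fold change 0.18, interval -0.10 to 0.47). For *Ddit3*, 6.13% of the exon bases are shared with a second gene model on the same strand and 4.73% with genes on the other strand (*Gm4189*, *Mars*). Reads in the part shared on the same strand cannot be assigned, and whether those shared with the other strand were told apart depends on the strand setting of the counting, which is not given in the sources used here.

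Among the feedback and effector genes, *Chac1*, a glutathione-degrading enzyme, was at 14.9, 30.2, 13.6 and 29.5 CPM in WT and at 33.1, 15.9, 101 and 19.1 CPM in Mtm1KO. The Mtm1KO library 3 was far above the rest, and the other 3 lay among or near the WT values. Its log2 fold change was 0.94 (SE 0.56, adjusted p = 0.23), and 0.06 without that library. *Trib3*, a pseudokinase that restrains ATF4 and AKT signalling, was at 0.719 to 1.05 CPM in WT and at 0.786 to 1.40 CPM in Mtm1KO (log2 fold change 0.29, interval -0.24 to 0.81). *Sesn2*, a leucine-binding inhibitor of mTORC1, was at 3.01, 2.57, 2.58 and 3.27 CPM in WT and at 2.71, 3.18, 4.55 and 3.90 CPM in Mtm1KO (log2 fold change 0.33, interval -0.09 to 0.74).

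The amino acid enzymes parted from each other. *Psat1*, the aminotransferase in the middle step of serine synthesis, was at 6.07, 4.41, 3.69 and 5.87 CPM in WT and at 8.36, 9.26, 11.4 and 8.75 CPM in Mtm1KO. Every Mtm1KO library was above every WT library, a separation in this direction that 14.7% of all genes tested also showed. The log2 fold change was 0.91 (SE 0.17, adjusted p = 0.00380). With a single fit over all 30 libraries the estimate was about the same, but the adjusted p was 0.168 with edgeR and 0.139 with DESeq2. *Asns*, asparagine synthetase, was at 5.32 to 7.25 CPM in WT and at 5.73 to 7.48 CPM in Mtm1KO (log2 fold change 0.08, interval -0.21 to 0.38). Of the enzymes on either side of *Psat1* in serine synthesis, *Psph* fell (log2 fold change -0.48, SE 0.09, adjusted p = 0.0030), from 16 ± 1.5 to 11.5 ± 0.55 CPM (SD, n = 4 each). *Phgdh*, named after its values were seen, was at 0.785 ± 0.187 CPM in WT and at 1.43 ± 0.68 CPM in Mtm1KO (SD, n = 4 each; adjusted p = 0.097).

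Both hormones were close to absent from the WT gastrocnemius. *Gdf15* had 1, 2, 0 and 0 counts in WT and 18, 5, 6 and 5 counts in Mtm1KO, so every Mtm1KO library held more counts than any WT library. Summed over the group this was 3 against 34 counts, a ratio of 12.3 after division by library size, with a 95% counting interval from 3.88 to 62.8, which covers counting error only. Without the filter on low counts edgeR gave *Gdf15* an adjusted p of 0.0308, and DESeq2 gave 0.0250, but with 3 counts in WT the fold is poorly fixed, and the Mtm1KO level of 0.221 ± 0.141 CPM (SD, n = 4) was below the 1.25 to 4.29 CPM of every liver library. *Fgf21* had 2, 0, 5 and 0 counts in WT and 2, 14, 5 and 4 counts in Mtm1KO (adjusted p = 0.31 with edgeR without the filter).

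**Figure D1:**
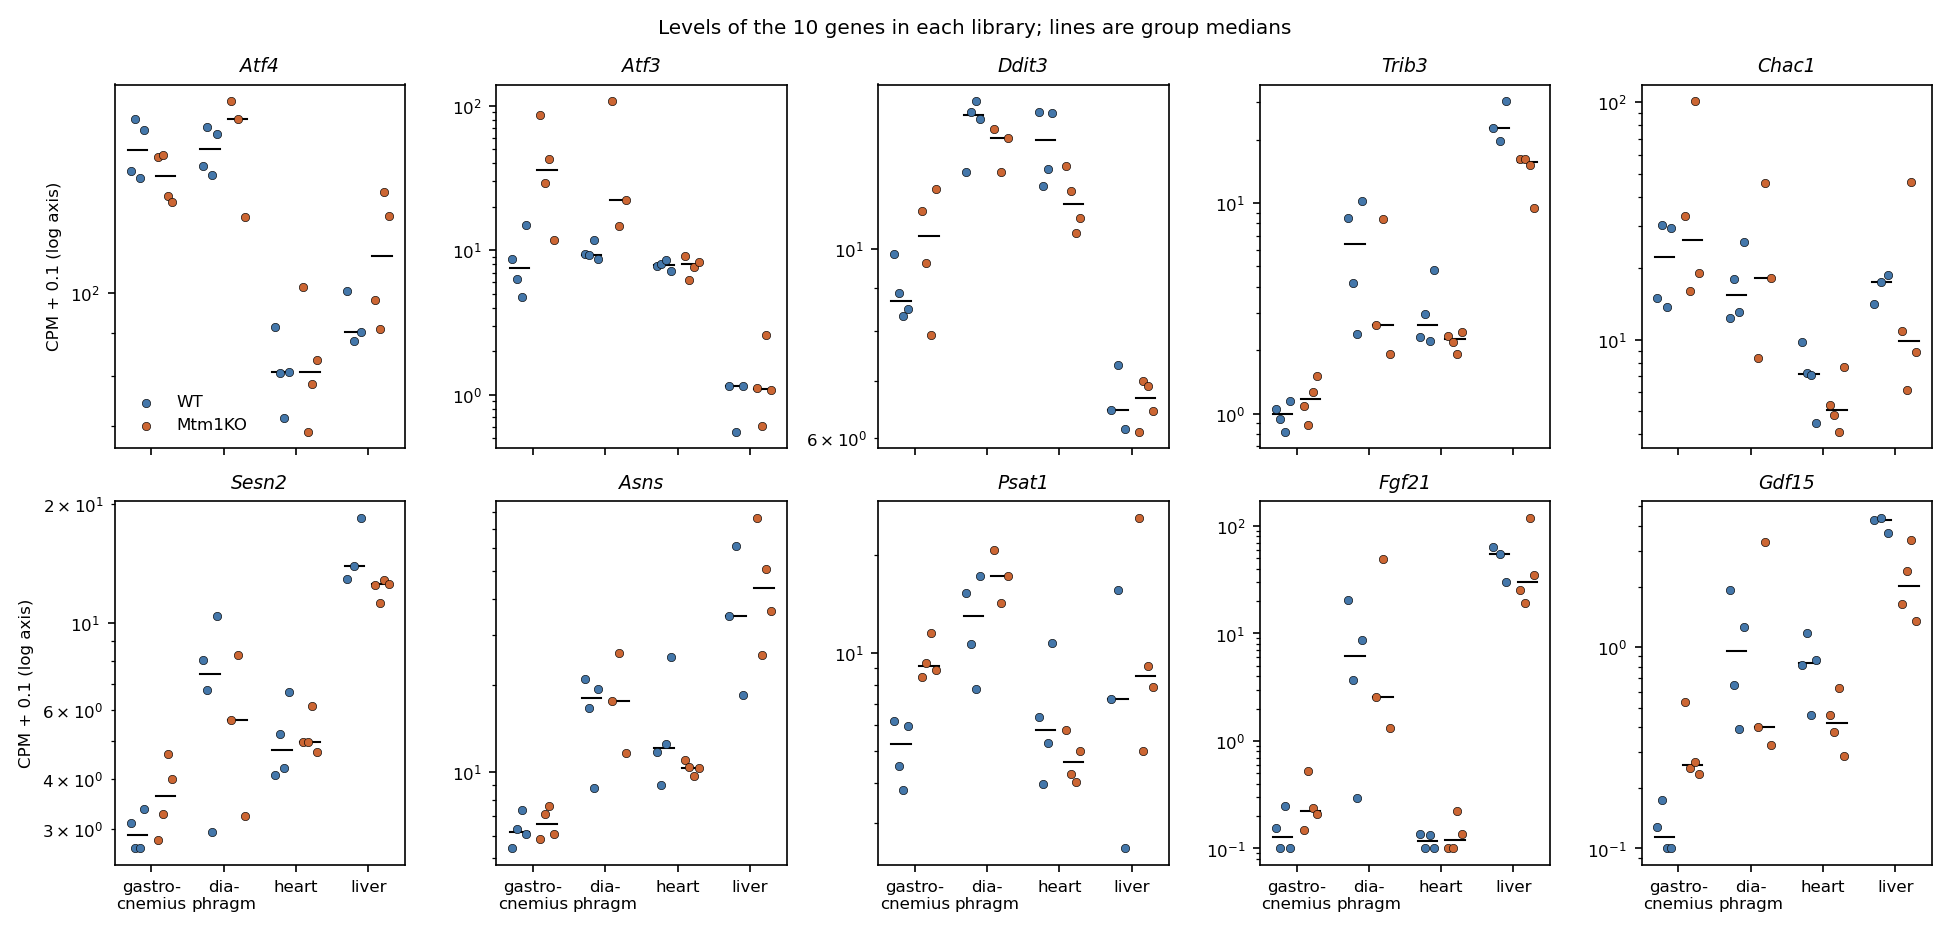
Level of each gene in every library (points, CPM + 0.1 on a log axis that differs between panels) by tissue, with WT in blue, Mtm1KO in orange and the group median as a line. In the gastrocnemius the Mtm1KO points of *Psat1* (8.36 to 11.4 CPM) sit above all WT points, while those of *Atf3* spread from 11.7 to 86.8 CPM and overlap with WT.

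Markers of cell types also differed between the genotypes in the gastrocnemius, where 14.1% of all genes tested rose and 14.9% fell. Of the macrophage markers 9 of 10 rose, and their summed level was 54.1 to 94.1 CPM in WT and 161 to 194 CPM in Mtm1KO. White adipocyte markers also moved (7 of 10 rose and 1 fell), but their summed levels overlapped. These were 758 to 943 CPM in WT and 791 to 1001 CPM in Mtm1KO. Skeletal muscle fibre markers fell in 8 of 8. Fibroblast markers rose in 5 of 8 and fell in 0 (median log2 fold change 0.46), with a summed level of 3010.4 to 8110.2 CPM in WT and 3521 to 10021 CPM in Mtm1KO. The part of these markers in the changes of *Atf3* and *Psat1* was not tested.

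In the diaphragm 0 of the 10 genes passed edgeR's test, where only 2 of 16796 genes were called in all, both lower (0% of genes rose and 0.0119% fell). At an unadjusted p under 0.05, 1 of the 10 genes differed (*Atf3*), beside 10.8% of all genes. DESeq2 called 1.70% of genes higher and 0.67% lower in this tissue, and *Atf3* was among the higher ones. *Atf3* was at 9.25, 9.18, 11.7 and 8.53 CPM in WT and at 108, 14.5 and 22.0 CPM in Mtm1KO, so all 3 Mtm1KO libraries lay above all 4 WT libraries, as did those of 5.40% of genes. Its log2 fold change was again 2.32 (SE 0.66), and the adjusted p was 0.309 in edgeR but 0.00759 in DESeq2. Library 1 carried most of this value, since without Mtm1KO library 1 the log2 fold change was 0.92. The order of the libraries in *Atf3* was not that in *Alb*, which was at 33827 CPM in the Mtm1KO library with the lowest *Atf3* and at 565 and 1685 CPM in the other two. Markers of other cell types are given beside it. Of 8 fibroblast markers edgeR called 0 and DESeq2 called 4, all higher, 6 were at an unadjusted p under 0.05, and the summed level was 2306 to 4918 CPM in WT and 5175 to 10247 CPM in Mtm1KO. The macrophage marker *Cd68*, named after its values were seen, was at 49.0 CPM in Mtm1KO library 1, the highest for *Atf3*, and at 6.17 to 13.5 CPM in the other 6. The macrophage markers *Mpeg1* and *Lyz2*, also named after their values were seen, set that library apart less. *Mpeg1* was at 36.9 CPM there and at 45.9 CPM in Mtm1KO library 4. *Lyz2* was at 494 CPM there and at 446 and 455 CPM in WT libraries 1 and 2. Of 10 macrophage markers 0 were at an unadjusted p under 0.05, and their summed levels overlapped between the genotypes (384 to 840.4 CPM in WT and 398 to 969 CPM in Mtm1KO). The part of these markers in the *Atf3* difference was not tested.

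The hormones followed the liver marker in this tissue instead. *Fgf21* was at 20.5, 3.60, 0.196 and 8.50 CPM in WT and at 2.48, 49.1 and 1.21 CPM in Mtm1KO diaphragm. *Gdf15* was at 1.82, 0.545, 0.294 and 1.16 CPM in WT and at 0.302, 3.24 and 0.227 CPM in Mtm1KO. For both, the highest library was the Mtm1KO library with 33827 CPM of *Alb*, and the next was the WT library with 26579 CPM. *Trib3* and *Sesn2* had their 4 highest values in the 4 libraries with at least 17699.9 CPM of *Alb*, of either genotype. *Trib3* reached 4.08 to 10.1 CPM in those libraries and 1.82 to 2.52 CPM in the other 3. *Sesn2* reached 6.66 to 10.3 CPM and 2.84 to 5.55 CPM, respectively. *Asns* was lowest in the 2 libraries with 294 and 565 CPM of *Alb* (8.71 and 11.5 CPM) and at 16.5 to 25.7 CPM in the other 5. Adipocyte markers, named after their values were seen, were lowest in the same 2 libraries. *Adipoq* was at 53.8 and 34.6 CPM there and at 94.1 to 276 CPM in the other 5. *Ucp1* was at 1.79 and 0.758 CPM there and at 12.1 to 61.8 CPM in the other 5. How much of these transcripts came from liver or fat RNA was not tested.

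**Figure D2:**
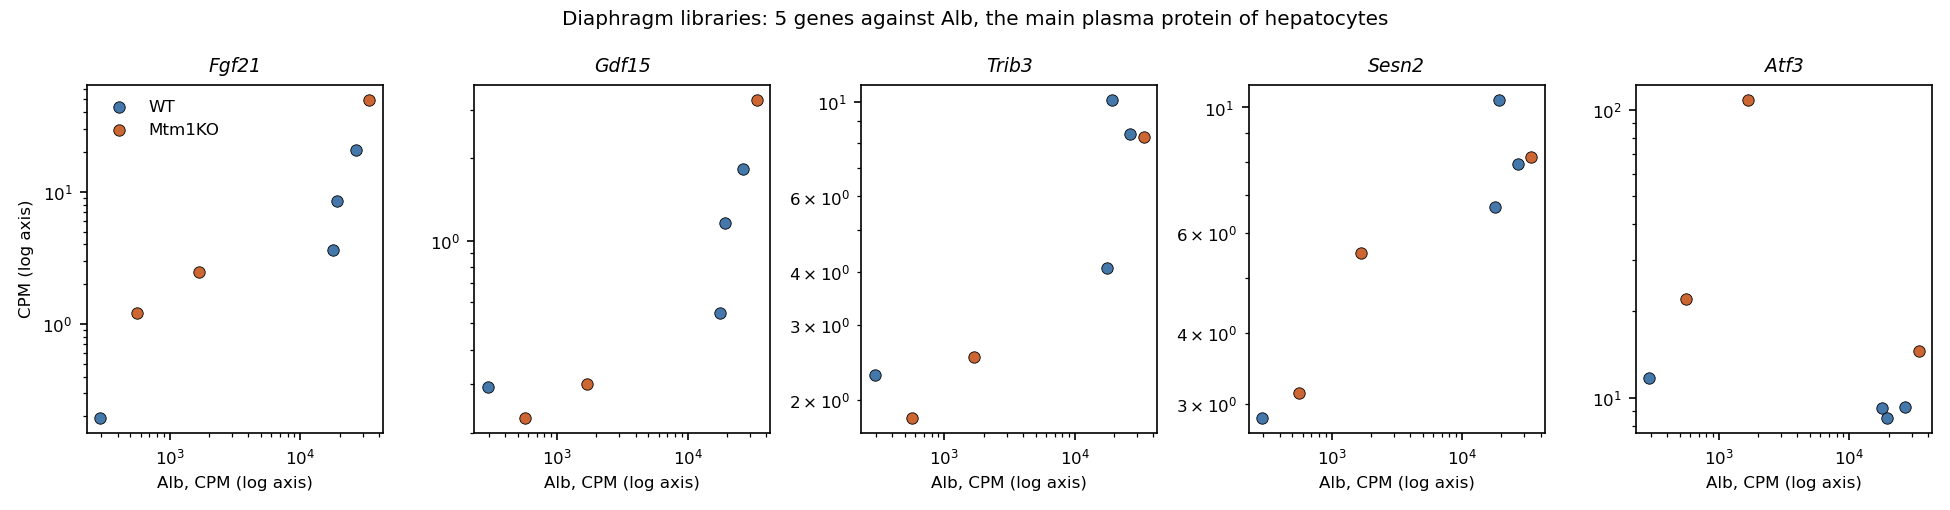
Levels of *Fgf21*, *Gdf15*, *Trib3*, *Sesn2* and *Atf3* in the 7 diaphragm libraries (CPM, log axis) against *Alb* (CPM, log axis), with WT in blue and Mtm1KO in orange. The first 4 genes were highest in the libraries with *Alb* at 17699.9 CPM or more, while *Atf3* was highest, at 108 CPM, in an Mtm1KO library with *Alb* at 1685 CPM.

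The genotype estimates in the diaphragm had wide intervals. For *Fgf21* the log2 fold change was 1.09 with a 95% confidence interval from -2.5 to 4.69, and for *Gdf15* it was 0.34 with an interval from -2.09 to 2.78. *Psat1*, at 15.2, 10.6, 7.67 and 17.2 CPM in WT and at 20.7, 14.1 and 17.2 CPM in Mtm1KO, had a log2 fold change of 0.46 (interval -0.23 to 1.1). *Atf4* (0.03) and *Ddit3* (-0.08) had log2 fold changes near 0 and the narrowest intervals, -0.30 to 0.35 and -0.34 to 0.18. *Chac1* was at 8.24, 45.7 and 18.1 CPM in the Mtm1KO diaphragm, on either side of the WT range of 12.3 to 25.7 CPM.

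In the heart 0 of the 9 tested genes passed, where edgeR called 1 of 15238 genes (0% of genes rose and 0.00656% fell), and DESeq2 called none of the 9 either. At an unadjusted p under 0.05, 1 of the 9 differed, *Gdf15*, beside 8.88% of all genes. *Gdf15* was at 0.713, 1.08, 0.361 and 0.761 CPM in WT and at 0.362, 0.277, 0.524 and 0.188 CPM in Mtm1KO, and the groups overlapped at WT library 3. Its log2 fold change was -1.10 (SE 0.41, adjusted p = 0.55). Markers of other cell types also differed between the genotypes in the heart with DESeq2. Of 10 hepatocyte markers edgeR called 0 and DESeq2 called 2, both higher, 9 were at an unadjusted p under 0.05 (median log2 fold change 2.22), and the summed level was 5.87 to 108 CPM in WT and 54.8 to 158 CPM in Mtm1KO. Of 10 white adipocyte markers edgeR called 0 and DESeq2 called 7, all lower (median -2.40), although their summed level was 3239 to 5706 CPM in WT and 4975 to 6195 CPM in Mtm1KO. Their part in the *Gdf15* values was not tested. *Atf3* was steady across all 8 hearts, from 6.13 to 8.97 CPM, with a log2 fold change of -0.02 (interval -0.32 to 0.28), and *Atf4* was at 71.3 to 91.2 CPM in WT and at 68.8 to 102 CPM in Mtm1KO (log2 fold change 0.04, interval -0.24 to 0.32). WT library 4 had the highest level of *Trib3* (4.69 CPM), *Sesn2* (6.56 CPM), *Asns* (25 CPM) and *Psat1* (10.6 CPM) among the 8 hearts. The other 7 hearts ranged from 8.91 to 12.4 CPM for *Asns* and from 3.87 to 6.26 CPM for *Psat1*. The log2 fold change of *Psat1* was -0.47 with all hearts and -0.12 without that library. *Fgf21* had 2 counts over the WT hearts and 4 over the Mtm1KO hearts.

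In the liver 0 of the 10 genes passed, and edgeR called 0 of 14305 genes (0% higher and 0% lower), while DESeq2 called 0.0326% higher and 0.130% lower, with no member among them. The edgeR test thus missed *Mtm1* itself, at 12.5 to 19.0 CPM in WT and 3.37 to 6.39 CPM in Mtm1KO livers, so 0 calls do not show absence of change. At an unadjusted p under 0.05, 2 of the 10 differed (*Trib3* and *Gdf15*), beside 4.24% of all genes. The genes *Trib3*, *Gdf15* and *Sesn2*, 3 of the 10, were lower in every Mtm1KO liver than in every WT liver, a pattern that 3.47% of all genes showed. *Trib3* was at 22.5, 19.5 and 30.4 CPM in WT and at 16, 16.1, 15 and 9.38 CPM in Mtm1KO (log2 fold change -0.77, SE 0.22, adjusted p = 0.97). *Gdf15* was at 4.19, 4.29 and 3.57 CPM in WT and at 1.55, 2.28, 3.31 and 1.25 CPM in Mtm1KO (log2 fold change -0.94, SE 0.32, adjusted p = 0.97). *Sesn2* was at 12.8, 13.8 and 18.4 CPM in WT and at 12.3, 11.1, 12.7 and 12.5 CPM in Mtm1KO, where the gap between the groups was small (log2 fold change -0.30, SE 0.14).

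*Fgf21*, which the liver makes in fasting and under amino acid restriction, was at 63.5, 54.2 and 30.2 CPM in WT and at 25.5, 19.1, 119 and 34.6 CPM in Mtm1KO liver. The log2 fold change was 0.01, but its 95% confidence interval ran from -1.36 to 1.37, so large changes in either direction lay inside it. Mtm1KO library 3 was the highest liver library for *Fgf21*, *Atf3* (2.5 CPM), *Atf4* (131 CPM) and *Chac1* (46.2 CPM, with 6.03 to 18.6 CPM in the other 6). Mtm1KO library 1 was the highest for the other pair, *Asns* (76.3 CPM) and *Psat1* (26.0 CPM), and WT library 3 was the lowest for both, at 18.4 and 2.41 CPM. The intervals of the genotype difference of these 6 genes all included 0.

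**Figure D3:**
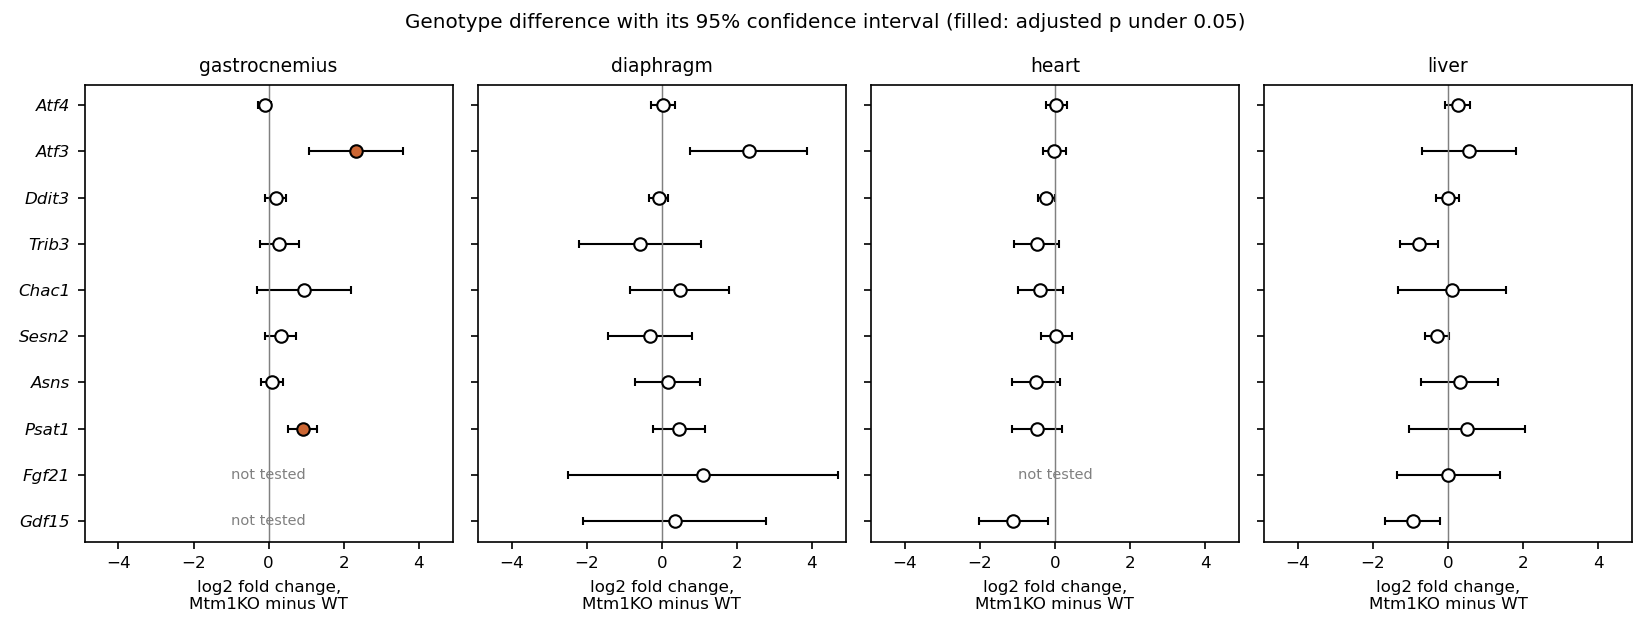
Log2 fold change between Mtm1KO and WT for each gene in each tissue (point), with its 95% confidence interval from edgeR (line) and filled points at an adjusted p under 0.05. The filled points are *Atf3* and *Psat1* in the gastrocnemius, and the widest interval is that of *Fgf21* in the diaphragm, from -2.5 to 4.69.

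Whether the genotype effect differed between tissues was tested as a contrast against the gastrocnemius, so these 3 comparisons share the gastrocnemius libraries. *Gdf15* had too few counts in the gastrocnemius to be tested there and entered these fits only through the other tissue, so its contrasts are given as values with no test, and the counts cover the 8 genes tested in the gastrocnemius. Heart minus gastrocnemius was lower for 2 of the 8, beside 9.89% of 16627 genes tested, and higher for 0, beside 9.94%. At an unadjusted p under 0.05 *Ddit3* was lower as well (-0.39, unadjusted p = 0.0324) and still 0 were higher. The contrast was -2.32 for *Atf3* (log2, SE 0.64, adjusted p = 0.0208) and -1.37 for *Psat1* (SE 0.36, adjusted p = 0.0157), which had risen in the gastrocnemius and had log2 fold changes of -0.02 and -0.47 in the heart. In an edgeR fit of all 30 libraries neither contrast passed (adjusted p = 0.0532 for *Atf3* and 0.162 for *Psat1*). The contrast of *Psat1* was -1.03 without WT heart library 4. Liver minus gastrocnemius was lower for 0 of the 8, beside 2.71% of 17179 genes, and higher for 0, beside 3.63%. At an unadjusted p under 0.05 *Trib3* (-1.03, SE 0.32, adjusted p = 0.070) and *Sesn2* (-0.59) were lower and *Atf4* (0.39) was higher, and DESeq2 called *Trib3*. The fitted contrasts of *Gdf15* were -4.17 for the heart and -3.98 for the liver, sizes that rest on the 3 counts of the WT gastrocnemius and so on the prior count of the fit. Diaphragm minus gastrocnemius passed for 0 of the 8, beside 0.114% of 17509 genes higher and 0.166% lower (the smallest unadjusted p of the 8 was 0.141, for *Ddit3*, and DESeq2 called 0), and the contrast of *Atf3* was 0.00 with an SE of 0.88.

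In WT mice the 10 genes differed widely in where they were expressed, and here levels were scaled in 1 fit of the 15 WT libraries and divided by exon length for comparison between genes. *Atf4* had the highest mean of the 10 in the 3 muscles and the second highest in the liver, with 68.9 ± 5.8 CPM per kilobase in gastrocnemius, 53.2 ± 3.9 in diaphragm, 28.7 ± 2.8 in heart and 47.9 ± 3.2 in liver (SD, n = 4, 4, 4 and 3). *Fgf21* was above it in the liver, at 63.1 ± 21.8 CPM per kilobase in the liver (SD, n = 3). At the other end were *Gdf15*, at 0.0150 ± 0.0206 CPM per kilobase in the gastrocnemius, and *Fgf21*, at 0.0154 ± 0.0179 CPM per kilobase in the heart (SD, n = 4 each).

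The transcription factors had their highest means in a skeletal muscle, the gastrocnemius for *Atf4* and *Atf3* and the diaphragm for *Ddit3*. The heart was lowest for *Atf4*. For *Atf4* the order was gastrocnemius, diaphragm, liver and heart, and each neighbour differed (log2 difference -0.37 from gastrocnemius to diaphragm, adjusted p = 0.0046, and 0.74 from heart to liver, adjusted p = 1.32e-05) except diaphragm and liver (adjusted p = 0.21). *Atf3* was at 4.37 ± 2.30, 3.81 ± 0.49 and 3.02 ± 0.23 CPM per kilobase in gastrocnemius, diaphragm and heart, which did not differ detectably, and at 0.482 ± 0.195 in the liver (SD), which was below each of them (heart to liver -2.64, SE 0.38, adjusted p = 1.80e-05). *Ddit3* varied least, from 4.66 CPM per kilobase in the liver to 6.88 in the diaphragm. *Chac1* was at 14.8 ± 6.1 CPM per kilobase in the gastrocnemius, 12.4 ± 1.8 in the liver and 8.94 ± 3.24 in the diaphragm (SD). No pair of these passed edgeR's test (adjusted p = 0.062 for gastrocnemius against diaphragm). It was lowest in the heart (3.59 ± 1.09), which was below each of the other tissues.

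The liver ranked first for *Trib3*, *Sesn2*, *Asns*, *Fgf21* and *Gdf15*. For *Trib3*, *Sesn2* and *Asns* the difference from all 3 other tissues passed the test. *Fgf21* (7 counts in the WT gastrocnemius and 2 in the WT heart) and *Gdf15* (3 in the WT gastrocnemius) passed the count filter through other tissues. Their differences from those tissues are read as near absence and not as tests, while their other differences from the liver passed. *Trib3* was at 13.8 ± 3.2 CPM per kilobase in the liver and 0.461 ± 0.074 in the gastrocnemius (log2 difference 4.9, SE 0.46, adjusted p = 2.45e-07). *Gdf15* was at 2.64 ± 0.25 CPM per kilobase in the liver (SD, n = 3) and at 0.328 ± 0.132 in the heart (SD, n = 4; log2 difference 3.0, SE 0.51, adjusted p = 8.63e-05). *Psat1* passed in 0 of the 6 tissue pairs (the smallest unadjusted p was 0.0452, for heart against diaphragm), with the 3 WT livers spread from 2.94 to 19.0 CPM. Between liver and gastrocnemius, 5 of the 10 genes were higher in the liver, beside 37.4% of 17725 genes tested, and 3 were lower, beside 42.1%. Between liver and heart 7 were higher in the liver (35.6% of all genes) and 2 lower (40.8%), and between liver and diaphragm 5 were higher (35.5%) and 2 lower (40.6%). Between heart and gastrocnemius 2 were higher in the heart (32.6%) and 2 lower (28.7%), and between heart and diaphragm 0 were higher (22.1%) and 4 lower (29.6%), with no further gene higher at an unadjusted p under 0.05. Where a pair holds a tissue in which *Fgf21* or *Gdf15* was near absent, its counts include their calls.

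The WT diaphragm had the second highest mean of *Fgf21*, *Gdf15*, *Trib3*, *Sesn2* and *Asns*. Among the WT diaphragm libraries, all of these genes were lowest in the library with the least *Alb*. Diaphragm minus gastrocnemius was higher for 6 of the 10 genes (beside 30.6% of all genes) and lower for 1 (beside 23.8%). The 6 include *Fgf21* and *Gdf15*, which were near absent from the WT gastrocnemius. WT library 3 was the one WT diaphragm library with *Alb* under 2000 plain CPM (counts divided by the library total). With it standing alone for the diaphragm, only the sizes of the differences are given, since 1 library gives no spread. The log2 difference of *Fgf21* went from 6.79 to 1.44, that of *Trib3* from 2.43 to 1.02, and that of *Sesn2* from 0.91 to -0.35. Those of *Atf4* (-0.37 to -0.44) and *Ddit3* (0.28 to 0.41) did not shrink. In that library *Fgf21* was at 0.163 CPM (6 counts), inside the range of the WT gastrocnemius libraries (0 to 0.164 CPM). The WT hearts were at 0 to 0.0312 CPM of *Fgf21*. The estimates of *Gdf15*, *Trib3*, *Sesn2* and *Asns* in that library lay below the heart, but they rest on 1 library. That single library is assumed to vary like the other groups.

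**Figure D4:**
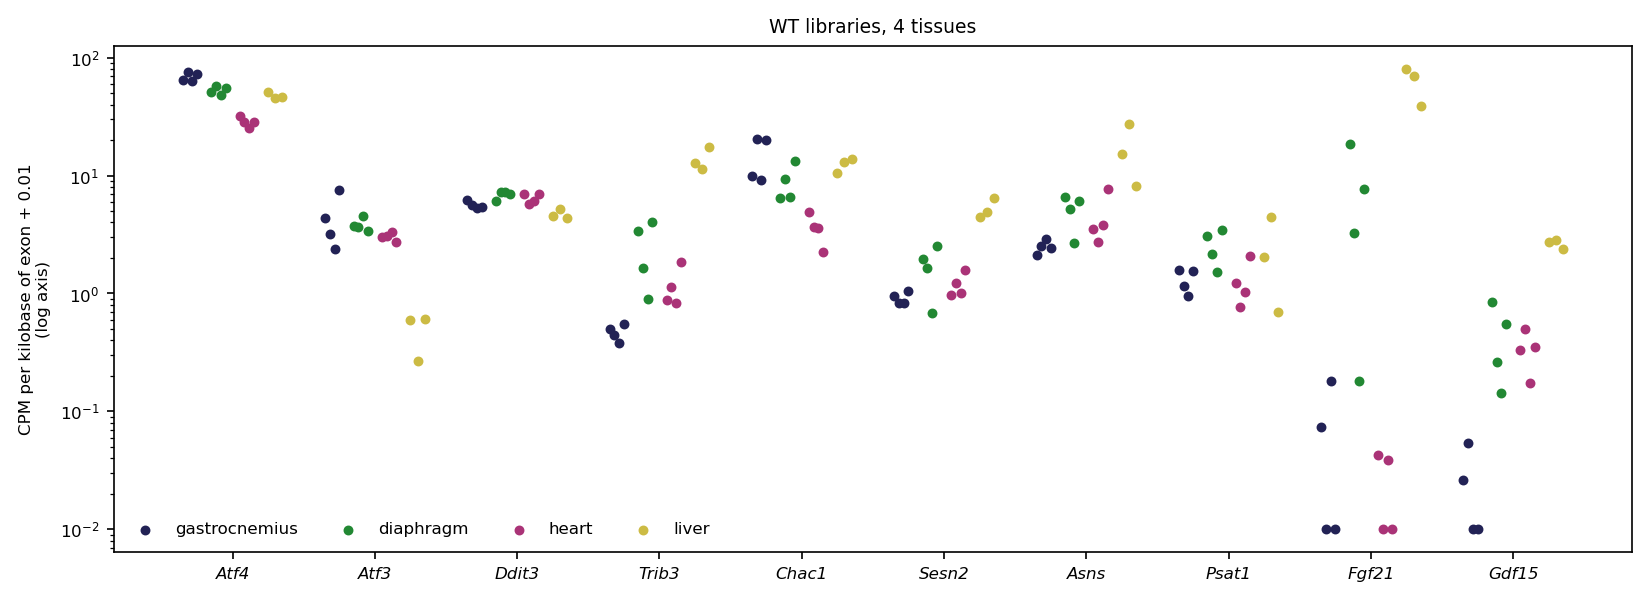
Levels of the 10 genes in the 15 WT libraries (points, CPM per kilobase of exon + 0.01, log axis), coloured by tissue. The liver points of *Trib3*, *Sesn2*, *Asns*, *Fgf21* and *Gdf15* lie above all points of the other tissues, while *Ddit3* stays between 4.32 and 7.21 CPM per kilobase throughout.

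Over the 30 libraries of both genotypes, genes whose log2 CPM was among the most like that of *Fgf21* were *Cyp7a1* (Pearson r = 0.98), which encodes the rate-limiting enzyme of bile acid synthesis, and *Serpina3m* (0.98). Those most like *Gdf15* were *Cox8a* (0.95), *Ninj1* (0.94) and *Cox6a1* (0.94), of which *Cox8a* and *Cox6a1* encode the forms of cytochrome oxidase subunits used outside striated muscle. Libraries of 1 tissue are not independent points for such a correlation, so these values are given as a description.

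The genes upstream of the 10 and their wider pathway were read from lists, and in the gastrocnemius genes moved in both directions. Among the eIF2α kinases and the factors that set eIF2 phosphorylation, 1 of 12 tested genes rose and 1 fell, with a median log2 fold change of 0.01. *Ppp1r15a* (GADD34, which directs the phosphatase to eIF2α) rose by 0.68 on the log2 scale (SE 0.15, adjusted p = 0.0081), and *Eif2ak1*, the kinase HRI, fell by 0.34 (SE 0.07, adjusted p = 0.0047). Among partners and relatives of ATF4, CHOP, TRIB3 and the sestrins, 5 of 13 rose and 1 fell (median 0.20), with *Cebpa* at 1.18, *Trib2* at 0.59, *Sesn3* at 0.51 and *Cebpg*, a dimer partner of ATF4, at -0.51.

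Among the other amino acid response targets of ATF4, 0 of 22 rose and 4 fell (median 0.10). These were *Gpt2* (alanine aminotransferase, log2 fold change -1.25), *Aldh1l2* (-1.12), *Slc38a2* (a neutral amino acid transporter, -0.61) and *Psph* (-0.48). Of the cytosolic aminoacyl-tRNA synthetases, 6 of 12 fell and 0 rose (median -0.20), led by *Iars* and *Mars*, both at -0.45. Of the mitochondrial stress genes, 5 of 10 fell and 0 rose (median -0.16), *Lonp1* (-0.33), *Oma1* (-0.36) and *Dele1* (-0.40) among them. OMA1 and DELE1 carry mitochondrial stress to HRI.

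Of the genes of the IRE1 and ATF6 arms of the unfolded protein response, 9 of 19 rose and 0 fell (median 0.28), beside 14.1% and 14.9% of all genes tested, and the other 10 did not pass. The changes were small, as in *Dnajb11* (0.34, SE 0.06), *Xbp1* (0.39, SE 0.09), *Edem1* (0.40, SE 0.09) and *Canx* (0.27, SE 0.06). Among p53 targets 6 of 10 rose and 1 fell (median 0.41). *Eda2r* went from 11.5 ± 1.7 to 127 ± 35 CPM, *Cdkn1a* from 60.4 ± 19.0 to 183 ± 58 CPM, and *Phlda3* from 28.1 ± 10.7 to 92.2 ± 21.7 CPM (SD, n = 4 each), while *Ccng1* fell by 0.68 on the log2 scale.

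Immediate-early genes, which resemble *Atf3* in their fast induction, rose in 5 of 15 and fell in 1 (median 0.84). *Egr1* was at 12.3, 6.46, 6.02 and 8.06 CPM in WT and at 89.1, 38.1, 35.5 and 26.9 CPM in Mtm1KO, and *Junb* at 2.42, 2.39, 2.13 and 4.54 CPM in WT and at 39.1, 10.7, 16.9 and 11.4 CPM in Mtm1KO. Mtm1KO library 1, the highest for *Atf3*, was also the highest for both of them. *Nr4a1* went down by contrast (-1.45 on the log2 scale, SE 0.34). In the Mtm1KO diaphragm, library 1 was again the highest for *Atf3* and for *Egr1* (125 CPM, with 45.1 and 55.8 CPM in the other two), but WT diaphragms also reached 110.5 CPM of *Egr1* with no more than 11.7 CPM of *Atf3*.

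Of 6 tested receptors of FGF21 and GDF15, *Fgfr4* (log2 fold change -1.29) and *Ret* (-1.25) fell and 0 rose (median -0.13). Of 10 tested PPARα targets of fasting, the gene group that shares *Fgf21* as a target in liver, 3 rose and 0 fell (median 0.53): *Vnn1* (1.43), *Angptl4* (1.70) and *Plin2* (0.53). In the diaphragm, heart and liver, edgeR called 0 genes of any of these 10 lists, with 0 to 6 genes of a list at an unadjusted p under 0.05. DESeq2 called 2 of the other amino acid response targets higher in the diaphragm, and at most 1 gene of any other of these lists in a tissue.

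**Figure D5:**
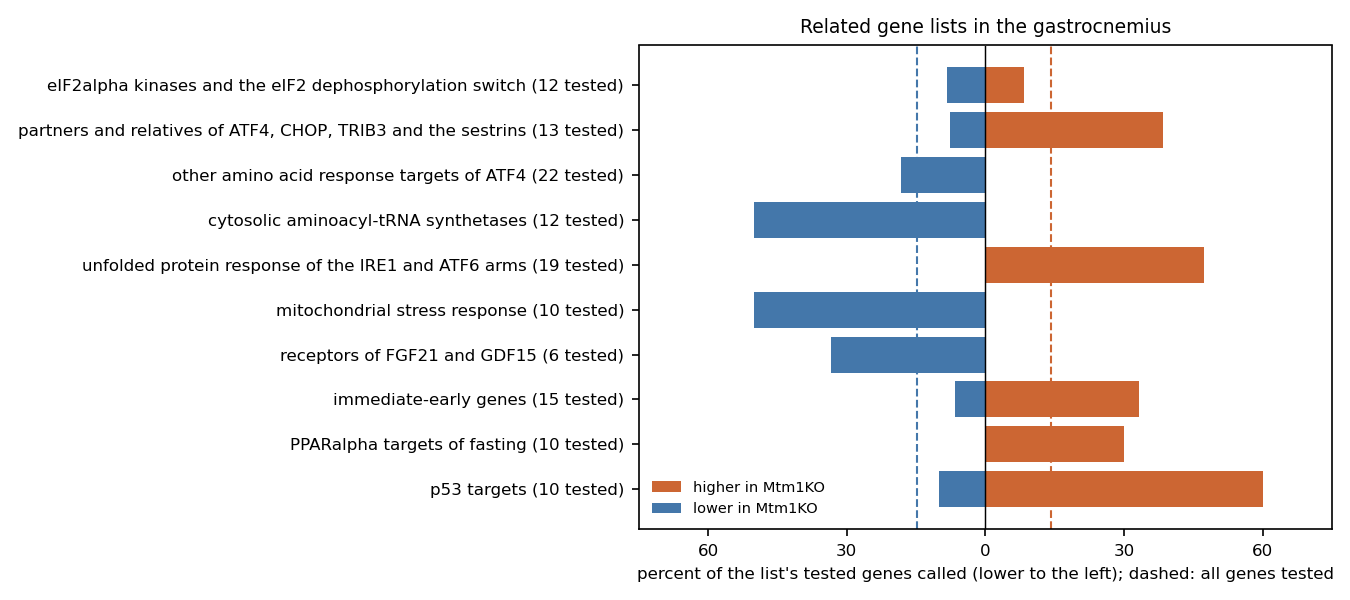
Percent of the tested genes of each list that rose (orange, to the right) or fell (blue, to the left) in the Mtm1KO gastrocnemius, with the share of all 15456 genes tested as dashed lines (14.1% rose and 14.9% fell). The unfolded protein response (9 of 19) and p53 targets (6 of 10) extend to the right, and the tRNA synthetases (6 of 12) and mitochondrial stress genes (5 of 10) to the left.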

How the data were processed

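The authors made poly(A) libraries from 350 ng of RNA with a stranded kit (TruSeq Stranded mRNA) and trimmed the reads with cutadapt 1.10. Alignment was to mm10 by STAR 2.5.3a, and htseq-count 0.6.1p1 counted uniquely aligned reads per gene (union mode, Ensembl release 96). The strand setting is not given in the sources used here. The deposited table holds the authors' raw counts of 36103 genes in 30 libraries, with no filter or normalization by the authors that the sources name.

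Here counts were analysed in R 4.3.3. Genes were filtered by filterByExpr (count minimum 10), scaled by TMM and tested with edgeR 4.0.16 (glmQLFit, glmQLFTest), with Benjamini-Hochberg adjustment over all genes tested. Mtm1KO was compared with WT in each tissue alone. Differences between tissues in the genotype effect came from fits of 2 tissues, and tissue differences from 1 fit of the 15 WT libraries. Alternatives were DESeq2 1.42.0, limma 3.58.1 (voom with sample weights), DESeq2 size factors, no filter, an added absolute log2 fold change over 1, all 30 libraries in 1 fit, the replicate number as a block, a hepatocyte score, and each library left out. The fits were also run on simulated counts with known fold changes, and the outcome is not reported here. Those counts held no shift shared by the genes of a library, unlike the diaphragm libraries with their spread of *Alb*. Exons come from GENCODE M21 (GRCm38) and promoters from RefSeq (GRCm38.p6), where all 10 symbols were found.

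The members and gene lists were chosen with earlier results of these data known. All 10 genes are named throughout. From each list, up to 4 genes that passed are named, in order of p, and for *Fgf21* and *Gdf15* the 3 genes of highest Pearson correlation, of which 1 is not reported here. The labels do not say whether libraries with the same number come from 1 mouse.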

Additional observations from a re-analysis of the deposited data

Results flagged for a closer look

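In groups of 4 libraries, 1 library lay far from the other 3 in 4 of the 60 groups tested, where chance gives about 1 in 20. These were *Chac1* at 46.2 CPM and *Fgf21* at 119 CPM in the same Mtm1KO liver library 3, *Trib3* at 9.38 CPM in Mtm1KO liver library 4, the lowest of its group, and *Gdf15* at 0.431 CPM (18 counts) in Mtm1KO gastrocnemius library 1.

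The genotype effect differed between heart and gastrocnemius by a test of the difference for *Atf3* (-2.32 on the log2 scale) and *Psat1* (-1.37), among 29 contrasts of single genes with the gastrocnemius. Neither passed in an edgeR fit of all 30 libraries. The fitted contrasts of *Gdf15*, -4.17 for the heart and -3.98 for the liver, also passed, but *Gdf15* was too low to be tested in the gastrocnemius (3 counts in the WT group), so nothing is read from them.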

How the results depend on the processing

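In the gastrocnemius *Atf3* kept its call under each alternative run, and *Psat1* lost it in edgeR and DESeq2 fits of all 30 libraries. With an absolute log2 fold change over 1 required in addition, the gastrocnemius count went from 2 to 1. One edgeR fit of all 30 libraries gave 1 call in the gastrocnemius, 1 in the diaphragm, 1 for heart minus gastrocnemius in place of 3 (*Gdf15* alone, with *Atf3* and *Psat1* lost), and 0 for liver minus gastrocnemius in place of 1 (*Gdf15* lost). These counts include *Gdf15*, which was too low to be tested in the gastrocnemius. DESeq2 gave 1 call in the diaphragm, on the tissue alone and on all libraries, and 2 for liver minus gastrocnemius (*Gdf15* and *Trib3*). Leaving out each library in turn gave 1 to 2 calls for liver minus gastrocnemius (2 without Mtm1KO gastrocnemius replicate 2) and 4 to 8 for the WT difference between diaphragm and gastrocnemius (4 without WT gastrocnemius replicate 2, 8 without WT diaphragm replicate 3). The cause was not tested. Counts for WT tissue pairs also include calls of *Fgf21* and *Gdf15* against tissues in which they were near absent. After seeing the data, diaphragm libraries with at least 2000 plain CPM of *Alb* were left out. This left 1 WT diaphragm library in the fit, so its calls are not counted and only changes of sign are given below.

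With the replicate number as a block, the counts were 2, 0, 0 and 0 for gastrocnemius, diaphragm, heart and liver, 0, 3 and 1 for the contrasts of diaphragm, heart and liver with the gastrocnemius, and, for the WT tissue pairs, 7, 4 and 7 for diaphragm, heart and liver minus gastrocnemius, 5 and 7 for heart and liver minus diaphragm, and 9 for liver minus heart. All are within 1.5 times the counts without the block. Same-numbered libraries of the genotypes correlated in their deviations at -0.64 to 0.46, and 9 of 28 correlated best with their own number, so the number was not taken to pair them.

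Among single genes, 648 values kept their direction and side of the threshold, 7 newly passed, 19 no longer passed and 30 changed sign (1078, 15, 22 and 55 with a library left out). Changes of sign with the block were, in log2 units, in the diaphragm *Atf4* (-0.013), *Asns* (-0.12), *Gdf15* (-0.91) and *Fgf21* (-1.34), in the liver *Chac1* (-0.17), *Fgf21* (-0.37) and *Ddit3* (0.0087), *Atf3* in diaphragm minus gastrocnemius (-0.26), and *Psat1* in WT liver minus diaphragm (0.0028). With limma voom they were *Asns* (-0.094), *Chac1* (-0.58), *Fgf21* (-1.10) and *Gdf15* (-1.32) in the diaphragm and *Fgf21* (-0.11) and *Chac1* (-0.17) in the liver. *Ddit3* in the liver was 0.00048 with DESeq2 alone, 0.0075 with DESeq2 on all libraries and 0.0034 with edgeR on all libraries. Without the libraries rich in *Alb*, they were *Gdf15* (-0.14) and *Sesn2* (0.61) in the diaphragm, *Sesn2* (0.29), *Psat1* (0.40) and *Fgf21* (1.57) in diaphragm minus gastrocnemius, *Sesn2* (-0.35) and *Atf3* (0.11) in WT diaphragm minus gastrocnemius, *Trib3* (0.35), *Asns* (0.71), *Sesn2* (0.77) and *Gdf15* (1.26) in WT heart minus diaphragm, and *Psat1* (0.64) in WT liver minus diaphragm. Of these values, *Sesn2* in WT diaphragm minus gastrocnemius and *Trib3* in WT heart minus diaphragm had been called.

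With each library left out in turn, sign changes were seen over these ranges. In the diaphragm these were *Asns* (-0.17 to 0.41), *Atf4* (-0.057 to 0.16), *Chac1* (-0.39 to 0.89), *Fgf21* (-2.15 to 2.09) and *Gdf15* (-1.83 to 0.86). In the heart they were *Atf3* (-0.098 to 0.081), *Atf4* (-0.075 to 0.12) and *Sesn2* (-0.053 to 0.20). In the liver they were *Asns* (-0.027 to 0.83), *Atf3* (-0.035 to 0.80), *Chac1* (-0.97 to 0.39), *Ddit3* (-0.058 to 0.069), *Fgf21* (-0.90 to 0.28) and *Psat1* (-0.21 to 1.31). For diaphragm minus gastrocnemius they were *Asns* (-0.26 to 0.30), *Atf3* (-1.41 to 0.61), *Chac1* (-1.33 to 0.40) and *Fgf21* (-3.77 to 0.43), and for liver minus gastrocnemius *Asns* (-0.083 to 0.77), *Chac1* (-1.88 to 0.071) and *Psat1* (-1.09 to 0.42). For WT tissues they were *Atf3* in diaphragm minus gastrocnemius (-0.41 to 0.20), *Gdf15* in heart minus diaphragm (-0.78 to 0.031), *Psat1* in heart minus gastrocnemius (-0.36 to 0.15) and *Psat1* in liver minus diaphragm (-0.88 to 0.35). None of these had been called. Depth limits *Fgf21* and *Gdf15* in the gastrocnemius and *Fgf21* in the heart, where WT groups held 2 to 7 counts.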
